A study of Homo sapiens with 3 samples.

Results

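The 49 genes described here act in homologous recombination, the Fanconi anaemia pathway, mismatch repair, the DNA damage checkpoint, end joining and the repair of single-strand breaks. They were chosen by symbol, and all 49 were listed in both deposited libraries, among 20344 genes. Messenger RNA was sequenced from A375, a human melanoma line with mutant BRAF, in 2 libraries of a series of 3 samples. The first library is titled A375-VR, Prop, and the second A375, Prop; they are called here the A375-VR library and the A375 library. The sample titled A375-VR, DMSO was not used here.

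Both titles hold the abbreviation Prop, taken here as propranolol, a drug that blocks beta-adrenergic receptors. The dose of propranolol in the extraction protocol is 20 µM for 24 h. That protocol, given for all samples, speaks of A375-VR cells kept in DMSO or in propranolol, whereas the A375 library has A375 in both its title and its cell line label, and the cell line given for the sample titled A375-VR, DMSO is also A375. The labels therefore disagree, and groups were taken from the titles. If the protocol held for the A375 library, that library would be of A375-VR cells, and the ratios below might set propranolol against DMSO instead of A375-VR against A375. Cell line, drug, culture and library preparation cannot be told apart as sources of a difference between the libraries. The series title concerns resistance to the BRAF inhibitor vemurafenib; how the A375-VR cells were derived, and whether they are 1 clone, is not given in the sources used here. With 1 library per group there was no replicate check and no test of a condition, and every interval below covers counting error only. Fewer cells in a cell cycle phase and less RNA per cell cannot be told apart in such bulk samples.

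Values are FPKM, in which the reads or fragments of a gene are divided by its length and by the total of the library. A level compared between genes depends on the length used for each gene, and the annotation that gave it is not named. The ratio of a gene between the libraries does not depend on that length. The totals, recovered from the FPKM values as described below, were 16438482 in the A375-VR library and 17811339 in the A375 library. Members had a median of 381 and 638 recovered reads in these libraries. SOX10, a transcription factor of the melanocyte lineage, had 149.6 FPKM in the A375-VR library and 65.3 in the A375 library. S100B, another marker of that lineage, had 12.6 FPKM in the A375-VR library and 3.72 in the A375 library. MITF, the master regulator of that lineage, went the other way, with 3.47 FPKM in the A375-VR library and 6.47 in the A375 library. The pigment genes TYR, DCT, TYRP1, MLANA and PMEL were all under 1 FPKM in both libraries. In at least 1 library 2 of 6 keratinocyte, 2 of 6 fibroblast and 1 of 5 endothelial marker genes reached 1 FPKM. These were KRT10, KRT14, LUM, PDGFRB and KDR. KRT10 had 56.0 FPKM in the A375-VR library and 44.9 in the A375 library. KDR had 1.84 FPKM in the A375-VR library and 0.394 in the A375 library. Of the leukocyte list 0 of 6 genes reached 1 FPKM in either library. PTPRC and CD3E were listed at 0 in both, whereas LYZ had 0.897 FPKM in the A375-VR library and 0 in the A375 library, and CD14 had 0.710 FPKM in the A375-VR library and 0.0595 in the A375 library.

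Homologous recombination copies the sister chromatid to mend a double-strand break and is used in S and G2 phase, when a sister is present. End joining ligates broken ends without a template and works through the cell cycle. The Fanconi anaemia pathway opens crosslinks between DNA strands, mismatch repair removes replication errors, and the kinases ATM and ATR pass the damage signal to CHEK2 and CHEK1. Several genes of recombination and of the Fanconi anaemia pathway are known targets of E2F, the transcription factor family that drives genes of the G1/S transition.

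Most of these genes had lower levels in the A375-VR library than in the A375 library, by modest ratios. A total of 47 of the 49 had at least 1 FPKM in at least 1 library and were compared, and the other two were RAD50 and RAD54B. The difference in log2(FPKM + 1), A375-VR minus A375, was below 0 in 42 of 47 members, against 39.7% of the 10761 genes past the same filter. No member differed 2-fold on this scale, where 0.613% of all genes were 2-fold lower and 3.14% 2-fold higher. At 1.5-fold, 9 members were lower (background 4.21%) and 1 was higher (background 11.6%). After centring on the median ratio of all genes, 13 members were at least 1.5-fold lower and 1 higher, against 7.06% and 8.45% of all genes, and 54.5% of all genes past 1.5-fold were higher, in place of 73.3%. The members' median difference was -0.42 and that of all genes 0.10.

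The 9 genes at least 1.5-fold lower in the A375-VR library were RAD54L, BARD1, XRCC2, MSH6, RAD51AP1, XRCC3, RMI2, FANCI and FANCA. FANCA, at -0.61, was the nearest inside the limit of 0.585 in size, and XRCC4, at -0.58, was the nearest outside it. The 1 gene at least 1.5-fold higher was ATM. Differences on this scale understate the change of low genes: the plain FPKM ratios of BARD1 and RAD54L were 0.445 and 0.474, past 2-fold, and that of ATM was 2.13. With a pseudocount of 0.1 in place of 1, BARD1 and RAD54L were 2-fold lower and ATM 2-fold higher. The 95% counting interval of the plain ratio lay wholly below 1 for 38 members, against 26.4% of the genes with recovered reads, and wholly above 1 for 1 member, against 43.7%. It held 1 for the other 8.

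**Figure D1:**
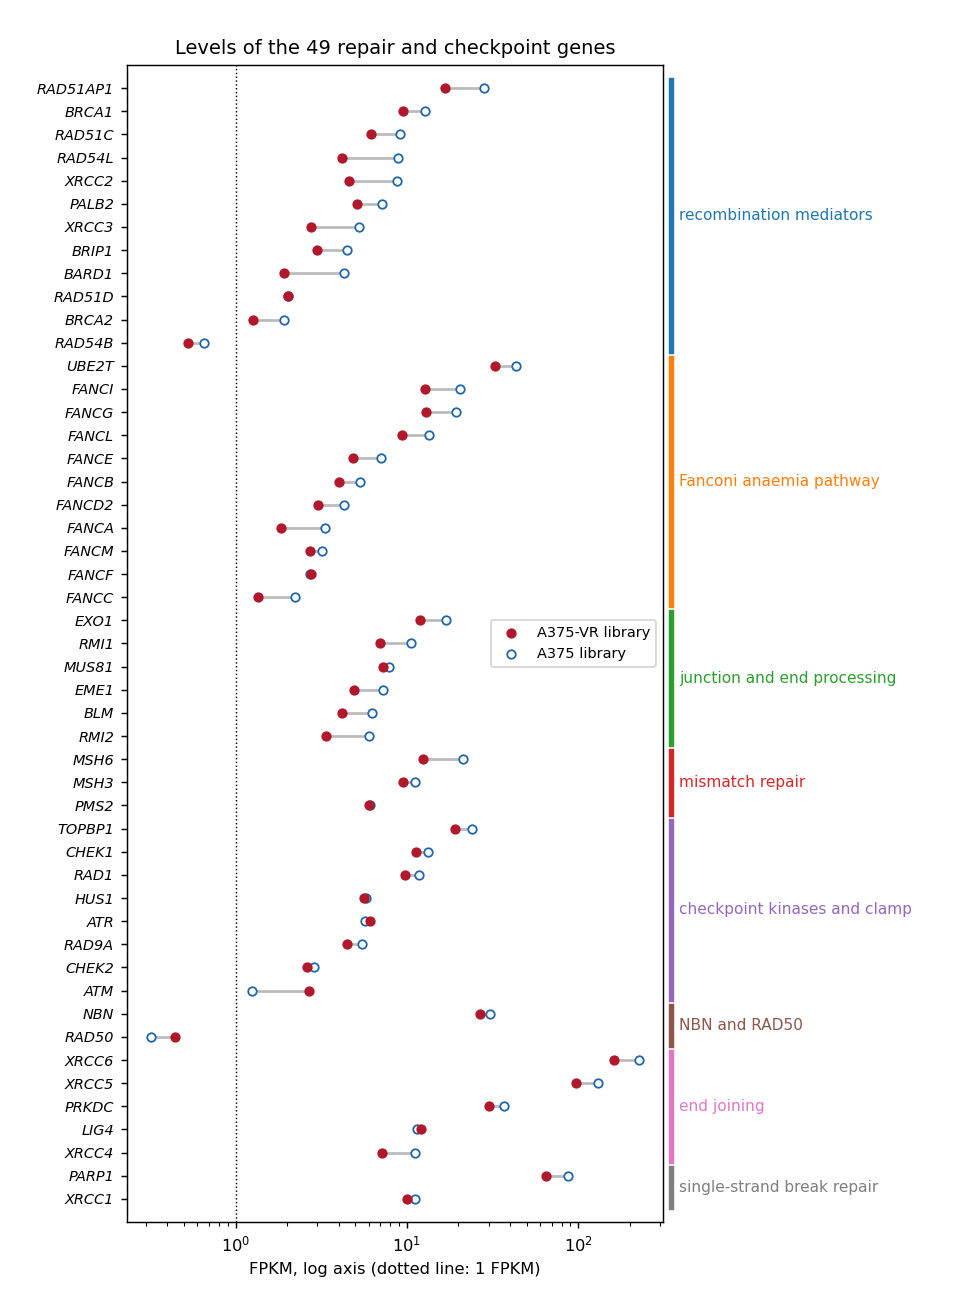
FPKM on a log axis of the 49 genes, grouped by role and ordered by level in the A375 library, with 1 filled point for the A375-VR library and 1 open point for the A375 library. The filled point lies left of the open one for most genes and right of it for ATM, while RAD50 and RAD54B lie below 1 FPKM in both libraries.

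Promoters of the members were searched for short sequences known to be bound by cell cycle factors. RefSeq promoters on GRCh38.p14, with 250 bases before and 50 after each start, were matched by symbol for 42 of the 49 members, as 60 promoters. FANCI, HUS1, NBN, PRKDC, RAD54B, RMI2 and XRCC5 had no match. An E2F sequence in one of 3 spellings (TTTCGCGC, TTTGGCGC or TTTCCCGC, on either strand) was held by 8 of these 60 promoters (13.3%), against 2.74% of all 35116 promoters and 4.34% of the 12620 promoters of genes past the filter. By gene it was held by 8 of 42 members (19.0%) and by 5.93% of 8665 genes past the filter. Among matched members it was held by 3 of the 13 known to be induced at S phase, listed below, and by 5 of the 29 others. Several of these genes are known E2F targets, and the sequences were chosen with earlier results known, so these shares are a description only. A match describes the letters in the window and is not a bound site.

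The sequences that matched are shown with the E2F spelling in capitals, 5′ to 3′ on the gene's strand. Where the spellings TTTGGCGC and TTTCGCGC overlap, in MSH3, 12 bases are in capitals. The XRCC6 sequence is shorter because the promoter window ends there. A total of 7 of the 9 matches began within 50 bases of the annotated start.
EXO1 (chr1:241848197-241848226, plus strand): aaaggtcagccTTTCGCGCgctgtgtaggc
FANCC (chr9:95317863-95317892, minus strand): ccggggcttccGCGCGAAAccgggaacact
FANCC (chr9:95317737-95317766, minus strand): ttcgtcggaatTTTCCCGCgacgccgcggg
FANCD2 (chr3:10026424-10026453, plus strand): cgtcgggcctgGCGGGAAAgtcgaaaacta
MSH3 (chr5:80654536-80654565, plus strand): gcggtcaagTTTGGCGCGAAAttgtggccg
MSH6 (chr2:47783137-47783166, plus strand): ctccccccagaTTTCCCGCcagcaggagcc
TOPBP1 (chr3:133661930-133661959, minus strand): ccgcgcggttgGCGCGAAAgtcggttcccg
XRCC2 (chr7:152676102-152676131, minus strand): tggcgttggtgGCGGGAAAgttgagtctct
XRCC6 (chr22:41621326-41621344, plus strand): gtcgcttccctGCGCCAAA

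All 8 genes with a match had lower levels in the A375-VR library, as had most members without one. XRCC2 and MSH6 were at least 1.5-fold lower, and the other 6 were not. CCAAT, the sequence of the factor NF-Y, was held by 29 of the 60 promoters (48.3%), by 34.6% of all promoters and by 35.2% of those of genes past the filter. By gene it was held by 23 of 42 members (54.8%) and by 3813 of 8665 genes past the filter. TTTGAA, the cell cycle homology region, was held by 5 of 60 (8.33%), by 15.2% of all promoters and by 10.2% of those of genes past the filter. By gene these shares were 11.9% of members and 13.3% of genes past the filter. The 120 bases before the start are shown for the lowest ratio, BARD1, and for the highest, ATM, with any of these sequences in capitals. BARD1 held none of them there, and ATM held TTTGAA before the annotated start shown and CCAAT before another, which is not shown.
BARD1 (chr2:214809684-214809803, minus strand): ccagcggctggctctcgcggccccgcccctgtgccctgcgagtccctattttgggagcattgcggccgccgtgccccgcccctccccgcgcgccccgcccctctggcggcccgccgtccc
ATM (chr11:108222947-108223066, plus strand): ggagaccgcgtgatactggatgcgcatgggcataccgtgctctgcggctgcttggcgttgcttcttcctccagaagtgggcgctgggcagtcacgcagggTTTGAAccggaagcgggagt

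Recombination mediators held the 4 lowest ratios of the members. Of the 12 genes of this group 11 were compared, 10 lay below 0, and 5 passed 1.5-fold downward. The median difference was -0.48. RAD54L (Entrez 8438; GRCh37 chromosome 1, 46712133 to 46744152, plus strand), a motor protein that remodels DNA during strand invasion, had 4.20 FPKM in the A375-VR library and 8.86 in the A375 library. Its ratio was 0.474 (0.403 to 0.557), and its difference lay at percentile 0.892 of all genes past the filter. LRRC41, on the opposite strand over 19.9% of its exon length, had a ratio of 1.09 (1.03 to 1.15). BARD1 (Entrez 580; chromosome 2, 215590370 to 215674407, minus strand), the partner of BRCA1 in a ubiquitin ligase, had 1.93 FPKM in the A375-VR library and 4.32 in the A375 library, a ratio of 0.445 (0.375 to 0.528). BRCA1 (Entrez 672) differed less than its partner, with 9.49 FPKM in the A375-VR library and 12.8 in the A375 library, a ratio of 0.744 (0.695 to 0.796). The BRCA1 level was thus 4.93 times that of BARD1 in the A375-VR library and 2.95 times in the A375 library.

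XRCC2, XRCC3, RAD51C and RAD51D, which form complexes that act early in strand exchange, went apart. XRCC2 had 4.63 FPKM in the A375-VR library and 8.75 in the A375 library, a ratio of 0.529 (0.466 to 0.600). XRCC3 had 2.77 FPKM in the A375-VR library and 5.23 in the A375 library, a ratio of 0.530 (0.464 to 0.604). RAD51C, which works with either of them, had 6.22 FPKM in the A375-VR library and 9.09 in the A375 library. RAD51D, the direct partner of XRCC2, was at 2.02 FPKM in both libraries, with a ratio of 1.00 (0.818 to 1.23). Exons of XRCC3 overlap those of KLC1, on the opposite strand, over 76.7% of their length. KLC1 had 1.39 FPKM in the A375-VR library and 1.29 in the A375 library, a ratio of 1.07 (0.937 to 1.23). How reads shared by XRCC3 and KLC1 were counted is not given, so the XRCC3 value is uncertain. The part of KLC1 in it was not tested.

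RAD51AP1, which stimulates strand pairing, had the highest level of the group, with 16.6 FPKM in the A375-VR library and 28.2 in the A375 library. Its ratio was 0.591 (0.517 to 0.674). BRCA2, a mediator of strand exchange, had 1.26 FPKM in the A375-VR library and 1.93 in the A375 library, a ratio of 0.656 (0.560 to 0.769). PALB2, which links BRCA2 to BRCA1, had a ratio of 0.713 (0.627 to 0.811), and the helicase gene BRIP1 had one of 0.669 (0.589 to 0.760). The intervals of these 4 genes lay below 1. RAD54B, a relative of RAD54L, was under the filter, with 0.527 FPKM in the A375-VR library and 0.655 in the A375 library from 46 and 62 recovered reads. FSBP, on the same strand, overlaps 66.0% of its exon length.

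In the Fanconi anaemia pathway 10 of 11 genes were lower in the A375-VR library, and 2 passed 1.5-fold. The median difference was -0.45. FANCI (Entrez 55215; chromosome 15, 89787176 to 89860492, plus strand) and FANCD2 form the pair that the pathway marks with ubiquitin at a crosslink. FANCI had 12.7 FPKM in the A375-VR library and 20.3 in the A375 library, a ratio of 0.625 (0.588 to 0.665). FANCD2 had 3.01 FPKM in the A375-VR library and 4.30 in the A375 library, a ratio of 0.700 (0.618 to 0.794), and copies of this gene in the genome make its value uncertain. UBE2T, the conjugating enzyme of that step, was the most abundant of the group, with 32.8 FPKM in the A375-VR library and 43.3 in the A375 library, a ratio of 0.759 (0.671 to 0.858).

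The core complex that attaches the ubiquitin was lower in most of its subunits. FANCA had 1.83 FPKM in the A375-VR library and 3.32 in the A375 library, a ratio of 0.551 (0.477 to 0.635), whereas ZNF276, which overlaps 19.6% of its exon length, had one of 0.979 (0.646 to 1.48). FANCG, its direct partner, had 12.9 FPKM in the A375-VR library and 19.4 in the A375 library, a ratio of 0.663 (0.605 to 0.726). FANCC was at 0.608, FANCE at 0.692, FANCL, the ligase subunit, at 0.701, and FANCB at 0.756, each with an interval below 1. FANCF, the adaptor of the complex, had 2.74 FPKM in the A375-VR library and 2.72 in the A375 library, a ratio of 1.01 (0.790 to 1.29). FANCM, the translocase that anchors the complex on DNA, had a ratio of 0.847 (0.739 to 0.972). The subunits therefore did not share 1 ratio, and the interval of FANCF held 1.

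The 6 genes that process junctions and ends were all lower in the A375-VR library, and 1 passed 1.5-fold. The median difference was -0.48. The BLM helicase dissolves double Holliday junctions with RMI1 and RMI2, and the 3 genes had similar ratios. BLM had 4.21 FPKM in the A375-VR library and 6.27 in the A375 library, a ratio of 0.672 (0.597 to 0.756). RMI1 had 6.99 FPKM in the A375-VR library and 10.6 in the A375 library, a ratio of 0.662 (0.583 to 0.750). RMI2 had 3.37 FPKM in the A375-VR library and 6.03 in the A375 library, a ratio of 0.558 (0.469 to 0.664). The intervals of these 3 genes overlap one another. EXO1, a nuclease of end resection and of mismatch repair, had 12.0 FPKM in the A375-VR library and 16.9 in the A375 library, a ratio of 0.710 (0.649 to 0.776). The nuclease MUS81 and its partner EME1 differed, with ratios of 0.914 (0.822 to 1.02) and 0.674 (0.576 to 0.788), so that of this pair only the interval of EME1 lay below 1. LRRC59, opposite to EME1 over 16.4% of its exon length, had a ratio of 0.739 (0.700 to 0.780), and its part in the EME1 value was not tested. Other genes, mainly CFL1 on the opposite strand, overlap 14.1% of the MUS81 exon length. CFL1 had 262 FPKM in the A375-VR library and 307 in the A375 library, a ratio of 0.854 (0.840 to 0.868). Its part in the MUS81 value was not tested.

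**Figure D2:**
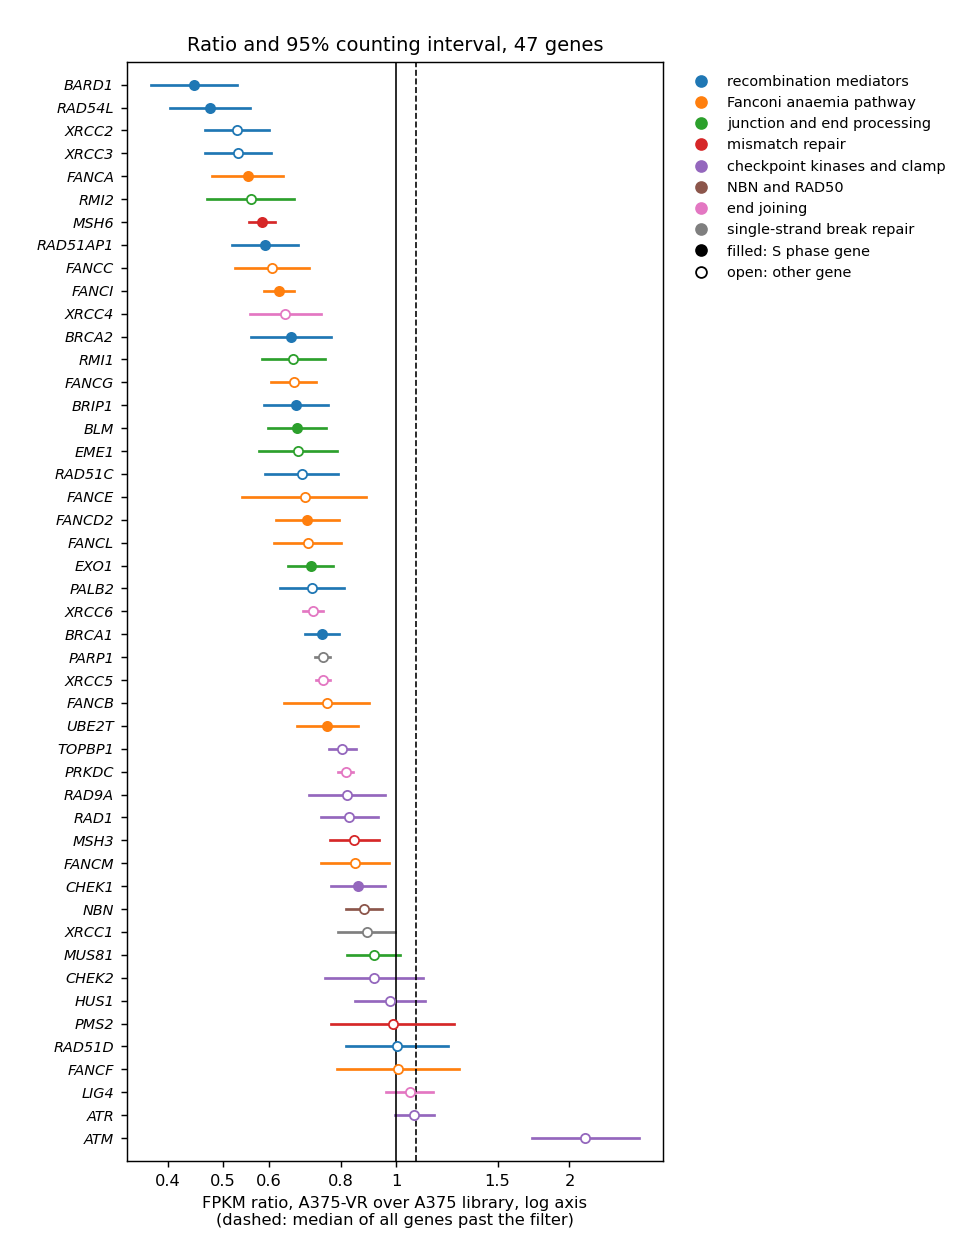
FPKM ratio, A375-VR over A375 library, on a log axis for the 47 genes past the filter, coloured by role, with bars for the 95% Clopper-Pearson interval of counting error; filled points are the 14 genes known to be induced at S phase. Ratios run from 0.445 for BARD1 to 2.13 for ATM, and the dashed line is the median ratio of all genes past the filter, 1.08.

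The 3 mismatch repair genes all lay below 0, but the partners of the recognition complexes went apart. MSH6 (Entrez 2956; chromosome 2, 47922669 to 48037202, plus strand), the subunit that recognises single mismatches, had 12.4 FPKM in the A375-VR library and 21.2 in the A375 library, a ratio of 0.584 (0.555 to 0.615). MSH3, which takes its place for larger loops, had 9.48 FPKM in the A375-VR library and 11.2 in the A375 library, a ratio of 0.845 (0.766 to 0.932). The intervals do not overlap, and the MSH6 level was 1.31 times that of MSH3 in the A375-VR library and 1.89 times in the A375 library. Those levels rest on lengths, recovered with the reads, of 10993 bases for MSH6 and 4709 for MSH3. PMS2, the nuclease subunit of the next step, had 6.03 FPKM in the A375-VR library and 6.12 in the A375 library, a ratio of 0.985 (0.771 to 1.26), and its near-identical copies make it uncertain. Exons of other genes, mainly FBXO11 on the opposite strand, overlap 24.2% of the MSH6 exon length, and FBXO11 had a ratio of 0.953 (0.852 to 1.07).

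The checkpoint genes had the smallest median difference of the groups, at -0.15, and held the 1 gene that was at least 1.5-fold higher. Of 8 genes 6 lay below 0 and 0 passed 1.5-fold downward. ATM (Entrez 472; chromosome 11, 108093771 to 108239829, plus strand), the kinase activated by double-strand breaks, had 2.67 FPKM in the A375-VR library and 1.26 in the A375 library. Its ratio was 2.13 (1.72 to 2.64), from 263 and 134 recovered reads, and its difference lay at percentile 92.2 of all genes. NPAT, which shares a promoter region with ATM and is read in the other direction, had a ratio of 1.10 (0.989 to 1.23). C11orf65, which overlaps ATM on the opposite strand, had 0.104 FPKM in the A375-VR library and 0.0797 in the A375 library.

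ATR, the kinase activated by single-stranded DNA at stalled forks, had 6.13 FPKM in the A375-VR library and 5.71 in the A375 library, a ratio of 1.07 (0.993 to 1.16). The level of ATM was 0.436 times that of ATR in the A375-VR library and 0.220 times in the A375 library. CHEK1, the kinase below ATR, had 11.3 FPKM in the A375-VR library and 13.2 in the A375 library, a ratio of 0.858 (0.770 to 0.955). Other genes overlap 13.4% of the CHEK1 exon length, and their part in its value was not tested. CHEK2, the kinase below ATM, had 2.63 FPKM in the A375-VR library and 2.87 in the A375 library, a ratio of 0.914 (0.751 to 1.11), and pseudogene copies make it uncertain. TOPBP1, which activates ATR, had the highest level of the group, with 19.2 FPKM in the A375-VR library and 23.8 in the A375 library, a ratio of 0.806 (0.763 to 0.851). The clamp genes RAD1, RAD9A and HUS1 had ratios of 0.829 (0.740 to 0.928), 0.821 (0.706 to 0.955) and 0.976 (0.848 to 1.12). HUS1, CHEK2 and ATR were thus not detectably different at this depth.

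NBN and RAD50 encode parts of the complex that senses broken ends and recruits ATM. NBN had 26.8 FPKM in the A375-VR library and 30.5 in the A375 library, a ratio of 0.877 (0.816 to 0.943). RAD50 was under the filter, with 0.442 FPKM in the A375-VR library and 0.322 in the A375 library from 71 and 56 recovered reads. Exons of RAD50 are overlapped over 76.9% of their length, mostly by an unnamed gene model on the same strand. How reads shared by overlapping genes were counted is not given in the sources used here, so the RAD50 value is uncertain.

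The end joining and single-strand break genes included the 3 most abundant members, whose ratios lay close together. In these groups 6 of 7 genes lay below 0, and 0 passed 1.5-fold in either direction. XRCC6 and XRCC5 encode the Ku heterodimer that caps broken ends. XRCC6 had 161 FPKM in the A375-VR library and 225 in the A375 library, a ratio of 0.716 (0.689 to 0.744). XRCC5 had 97.3 FPKM in the A375-VR library and 131 in the A375 library, a ratio of 0.745 (0.725 to 0.766). The level of XRCC6 was 1.66 times that of XRCC5 in the A375-VR library and 1.72 times in the A375 library, so their balance was nearly the same. PARP1, which marks single-strand breaks with ADP-ribose, had 64.9 FPKM in the A375-VR library and 87.3 in the A375 library, a ratio of 0.744 (0.723 to 0.766). These 3 genes had 324 of the 685 FPKM summed over all members in the A375-VR library and 443 of 926 in the A375 library.

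PRKDC, the catalytic kinase recruited by Ku, had 30.2 FPKM in the A375-VR library and 37.0 in the A375 library, a ratio of 0.816 (0.792 to 0.841). XRCC4 and LIG4, which act as 1 ligase complex, went apart. XRCC4 had 7.12 FPKM in the A375-VR library and 11.1 in the A375 library, a ratio of 0.641 (0.556 to 0.739), whereas LIG4 had 12.1 FPKM in the A375-VR library and 11.5 in the A375 library, a ratio of 1.05 (0.960 to 1.16). XRCC1, the scaffold of single-strand break repair, had 9.95 FPKM in the A375-VR library and 11.2 in the A375 library, a ratio of 0.888 (0.793 to 0.993). Other genes overlap 28.2% of the XRCC1 exon length, and their part in its value was not tested.

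The members known from earlier work to be induced at S phase had a lower median difference than the others. Their list was chosen with earlier results of these data known. These 14 genes (BRCA1, BRCA2, BARD1, BRIP1, RAD51AP1, RAD54L, FANCA, FANCD2, FANCI, UBE2T, BLM, EXO1, MSH6 and CHEK1) all lay below 0, and 6 passed 1.5-fold downward. Of the other 33 compared, 28 lay below 0 and 3 passed 1.5-fold downward. The median difference was -0.47 in the S phase genes and -0.30 in the others. With the filter at 5 FPKM the medians were closer, at -0.48 and -0.42. The ranges overlap, from -0.92 to -0.20 in the S phase genes and from -0.79 to 0.70 in the others, and the difference between these groups was not tested. Replication genes lay lower still, with a median of -0.73 and 18 of 29 at least 1.5-fold lower, and mitosis genes had a median of -0.56 with 9 of 25. The part of cell cycle phase in the members' levels was not tested.

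**Figure D3:**
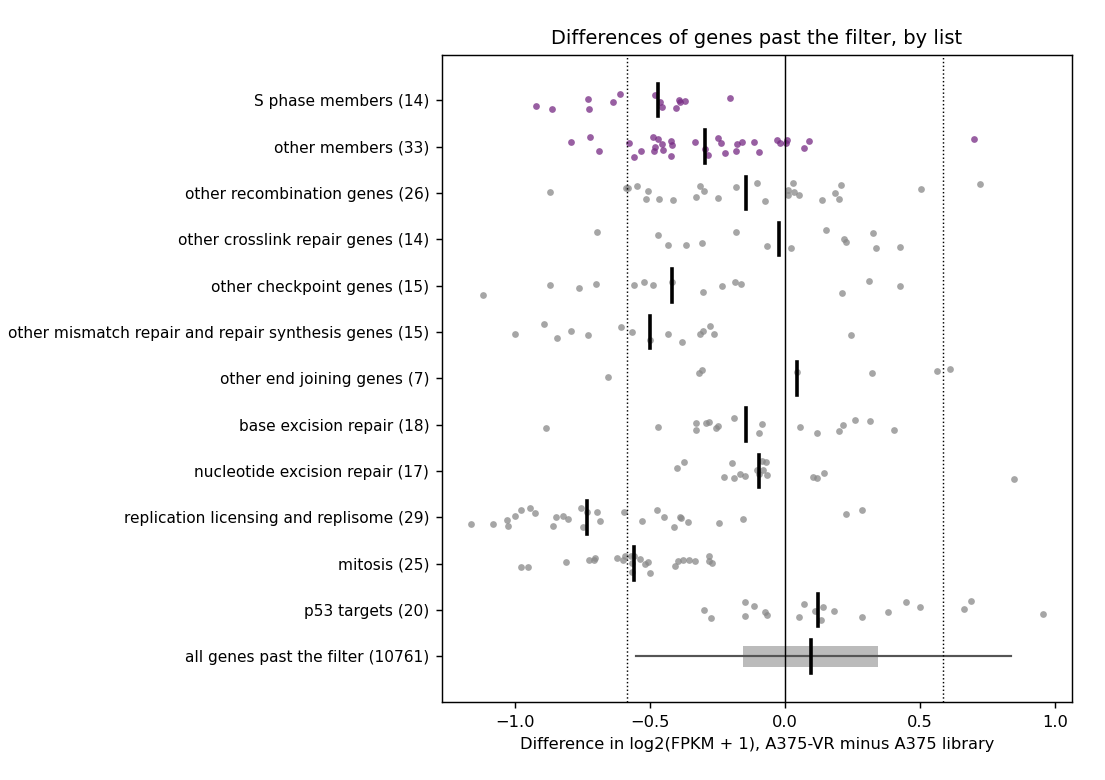
Difference in log2(FPKM + 1), A375-VR minus A375 library, of genes past the filter, with 1 point per gene, a black bar at each list's median and the number of genes in brackets; for all genes the box runs over the central quartiles and the line over the central range that leaves out 5% at each end. Dotted lines mark 1.5-fold. The median of the S phase members (-0.47) lies left of that of the other members (-0.30), and their ranges overlap.

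Other genes of the same pathways were taken from lists of 82 genes, of which 77 passed the filter. Of these 51 lay below 0, 14 passed 1.5-fold downward and 2 passed it upward. Their median difference was -0.30. Checkpoint genes outside the members were lower in 12 of 15, with a median of -0.42, led by CLSPN. CLSPN, the adaptor through which ATR activates CHEK1, had 8.07 FPKM in the A375-VR library and 18.7 in the A375 library, a ratio of 0.431 (0.395 to 0.471), and was one of the 2 genes past 2-fold. The mitotic inhibitor kinase gene PKMYT1 had a ratio of 0.512 (0.462 to 0.568) and TIPIN, of the fork protection complex, one of 0.563 (0.498 to 0.636). CDC25A, the phosphatase that CHEK1 opposes, had a ratio of 0.603 (0.561 to 0.647).

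Repair synthesis genes were lower in 14 of 15, with a median of -0.50, and held the other gene past 2-fold. PCNA, the sliding clamp of DNA polymerases, had 154 FPKM in the A375-VR library and 309 in the A375 library, a ratio of 0.498 (0.479 to 0.518). POLD1, the catalytic subunit of polymerase delta, had a ratio of 0.521 (0.470 to 0.577), and the clamp loader genes RFC3 and RFC2 had ratios of 0.550 (0.501 to 0.602) and 0.568 (0.524 to 0.616). These genes also serve DNA replication.

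The remaining lists went both ways. Further recombination genes were lower in 15 of 26, with a median of -0.14. TONSL and MMS22L, partners at stressed forks, had ratios of 0.507 (0.462 to 0.557) and 0.485 (0.424 to 0.554). ZSWIM7 had 7.61 FPKM in the A375-VR library and 4.21 in the A375 library, and FIGNL1 a ratio of 0.630 (0.513 to 0.772). Crosslink repair genes were lower in 7 of 14, with a median of -0.02. USP1, which removes the ubiquitin from FANCD2, had 27.4 FPKM in the A375-VR library and 45.1 in the A375 library, a ratio of 0.608 (0.575 to 0.643), whereas WDR48, its cofactor, had a ratio of 1.38 (1.11 to 1.73). End joining genes were lower in 3 of 7, with a median of 0.04. PAXX, which binds Ku, had a ratio of 0.629 (0.575 to 0.688), and the polymerase genes POLM and POLL had ratios of 1.62 (1.44 to 1.82) and 1.58 (1.33 to 1.88).

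The members' differences were set against gene span, exon length and level. Across the 47 genes, which are not independent replicates, Pearson's r between the difference and the logarithm of gene span on GRCh37 was -0.05, and Spearman's rho was -0.06. Without ATM they were -0.16 and -0.11. With the logarithm of exon length they were 0.24 and 0.15. With the mean log2 level they were -0.16 and -0.15, where all genes past the filter had -0.22 and -0.26. Members span from 3291 bases for FANCF to 327743 for FANCC.

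**Figure D4:**
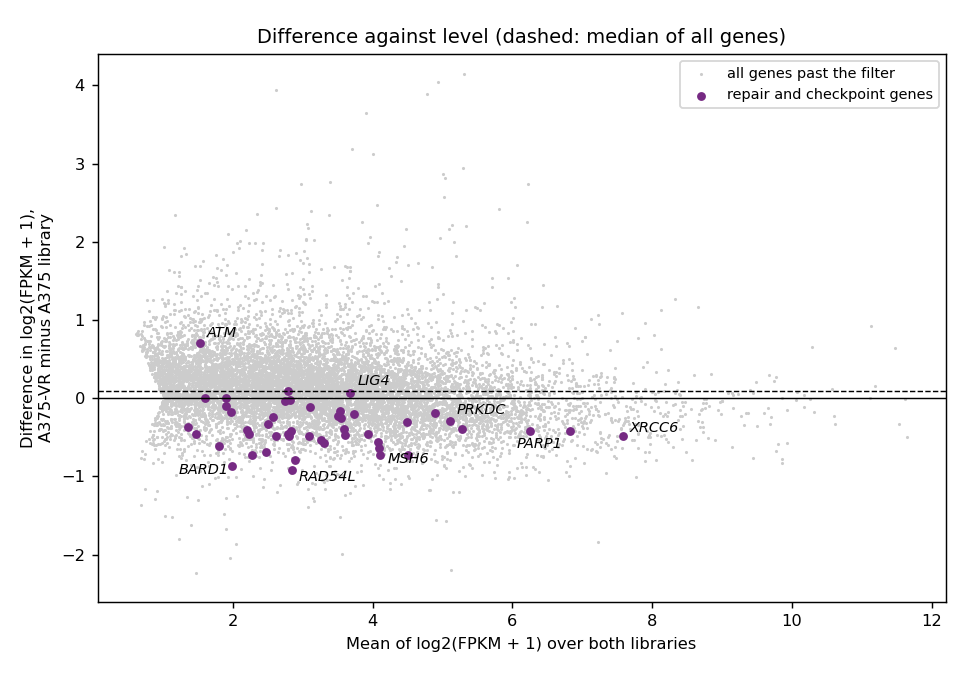
Difference in log2(FPKM + 1), A375-VR minus A375 library, against the mean of log2(FPKM + 1) over both libraries, with 1 grey point per gene past the filter and the 47 repair and checkpoint genes in purple. The members lie mostly under the dashed median of all genes (0.10) at low and high levels alike, with ATM above it at 0.70.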

How the data were processed

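Messenger RNA was sequenced from 2 libraries of melanoma cells. Per the series design text, stranded TruSeq libraries were read as pairs of 150 bp and aligned to GRCh37 with TopHat 1.3.3. The authors deposited FPKM, 1 value per gene and library; the sources used here do not name the counting tool, the annotation or the use of strand. Groups were taken from the titles. From FPKM, log2(FPKM + 1) was computed for genes with at least 1 FPKM in at least 1 library, and a difference was called 1.5-fold or 2-fold by size. With 1 library per group no test was made.

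Ratios are plain FPKM ratios. Their 95% Clopper-Pearson intervals rest on recovered reads. The ratio of the library totals came from 274 genes with equal reads. Its common factor, 3, was the largest of 12 tried at which over 60% of 13054 genes had a whole length (68.9%, within a relative tolerance of 1e-11). All 49 members, and 10676 of the 10761 genes past the filter, came out whole within this tolerance. Reads are the smallest whole numbers possible at this factor, so intervals may be too wide. If the mates of a pair were counted separately, intervals may instead be too narrow. Whether reads or fragments were counted is not given in the sources used here. They cover counting error only.

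Members, lists and promoter sequences searched for were chosen with earlier results of these data known. All members could be named, and up to 4 genes of each other list, those with the largest differences. Positions and overlaps are from GENCODE release 44 on GRCh37. Alternatives were a pseudocount of 0.1, no filter, a filter at 5 FPKM, median centring, a trimmed mean of log ratios and a common sum. The steps were tested on simulated data. Python 3.11.15 and scipy 1.17.1 were used.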

Additional observations from a re-analysis of the deposited data

How the results depend on the processing

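No paired analysis was possible because each group has 1 library, and for the same reason no library could be left out. The members' median difference was between -0.40 and -0.52 under the planned settings, and the 9 genes at least 1.5-fold lower kept that call in each planned setting in which they passed the filter. Median centring and the trimmed mean moved the median of all genes from 0.10 to 0.00, and 4 members near 0 (ATR, FANCF, LIG4 and RAD51D) changed sign with either. The cause of the other moves below was not tested.

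With the pseudocount of 0.1, 2 members were 2-fold lower and 1 was 2-fold higher, and of all genes 140 were 2-fold lower and 689 higher, in place of 66 and 338. With median centring and with the trimmed mean 1 member was 2-fold lower, 101 genes were 2-fold lower and 760 at least 1.5-fold lower, in place of 453, while the median of the members outside the S phase list was -0.41 in both and that of the S phase members -0.57 with the trimmed mean. Rescaling to a common sum raised all FPKM values above 0 while the pseudocount stayed at 1. After this rescaling 2 members were 2-fold lower, and of all genes 104 were 2-fold lower and 624 higher. With the filter at 5 FPKM, which leaves fewer genes and not ATM, 0 members were 1.5-fold higher, the median was -0.48 for the S phase members and -0.42 for the other members, and 783 genes were at least 1.5-fold higher, in place of 1243. Without 13 members that overlap other genes over at least 10% of their exon length or have near-identical copies, chosen after seeing the data, 5 members were at least 1.5-fold lower and the median was -0.42.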

Other observations

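Damaged bases and bulky lesions are repaired by pathways outside the members. Most genes of these pathways were within 1.5-fold, as were 9065 of the 10761 genes past the filter. Of all genes past the filter 39.7% lay below 0, 4.21% were at least 1.5-fold lower and 11.6% at least 1.5-fold higher. Of 18 base excision repair genes 11 lay below 0 and 1 passed 1.5-fold downward; the median difference was -0.14. That gene was UNG, which removes uracil from DNA, with 27.8 FPKM in the A375-VR library and 52.1 in the A375 library, a ratio of 0.533 (0.497 to 0.572). Of 17 nucleotide excision repair genes 13 lay below 0 and 0 passed 1.5-fold downward; the median difference was -0.10. CETN2, part of the damage sensor, was the 1 gene at least 1.5-fold higher, with 39.9 FPKM in the A375-VR library and 21.7 in the A375 library. Targets of p53, which are induced by damage signalling, were above 0 in 13 of 20, against 6493 of the 10761 genes past the filter. Their median was 0.12, close to that of all genes. Of these 20 targets 3 were at least 1.5-fold higher, against 11.6% of all genes past the filter. These were TP53INP1, with a ratio of 3.28 (2.50 to 4.35), CDKN1A, the inhibitor p21, with 1.62 (1.56 to 1.69), and TP53I3 with 1.63 (1.46 to 1.82).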
